A study of Mus musculus with 4 samples.

Results

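The genes described here belong to families of histone acetylation writers (enzymes adding acetyl groups), erasers (enzymes removing them) and readers (bromodomain proteins binding them). They were chosen by name, with earlier results of these data known, as were the gene lists and pairs used below. The 37 gene symbols were looked up among the 24391 genes of the deposited table, and all 37 were found there and could be tested. The list holds 11 zinc-dependent histone deacetylases (HDACs), 7 sirtuins, 11 writers (3 of them p160 coactivators) and 8 readers. Some of the erasers, such as Hdac6 and the mitochondrial sirtuins, act mainly on other proteins than histones. The libraries come from Beko cells, a mouse pre-T cell line, all of which had been treated for 48 h with DAPT, a γ-secretase inhibitor (GSI) that prevents the release of the Notch intracellular domain. Of the 4 RNA-Seq libraries, 2 were made directly after the 48 h in GSI and 2 after the inhibitor had been washed out and the cells cultured for another 24 h (washout). The labels give the dose as 10 mg/ml and the methods give the same figure in μg/ml. No DMSO or mock-washed library was analysed here, so renewed Notch activity, the wash itself and the longer culture cannot be told apart. Beko is a single cell line and nothing states that the replicates came from separate cultures, so the p-values measure only the spread between these libraries.

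Acetylation of histone tails neutralizes the charge of lysines and is generally found at active promoters and enhancers. Writers such as the GCN5/PCAF, MYST and p300/CBP enzymes deposit the mark, bromodomains read it, and HDACs and sirtuins remove it, the HDACs with a zinc ion and the sirtuins with NAD as co-substrate. The class I enzymes HDAC1, HDAC2 and HDAC3 work in the nucleus in the Sin3, NuRD, CoREST and NCoR complexes. Class IIa HDACs shuttle between cytoplasm and nucleus and bind MEF2 factors. In the Notch pathway, RBPJ recruits HDAC-containing corepressors when Notch is off, and p300 together with Mastermind when Notch is on. In thymocytes HDAC7 is highly expressed, and HDAC1 and HDAC2 are needed for normal T-cell development.

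The reads counted on genes came to between 13716199 and 36364200 per library, replicate 1 being the deeper one in both groups. Of 10 Notch-responsive genes used to check the treatment, 9 could be tested and all 9 rose upon washout, with a median log2 fold change of 2.36. All 12 S phase genes of a second list rose as well, with a median of 1.54. Markers of T-cell progenitors summed to between 5000 and 5490 CPM (counts scaled to a common library size with TMM factors) in every library. Within that list of 10 genes, Rag1 took 1764 to 2766 CPM, 3 genes rose and 3 fell, among them Ptcra (log2 fold change 2.37) and Cd3g (0.86), and Gata3 (-1.67), Tcf7 (-0.87) and Bcl11b (-0.72). B cell markers stayed below 1 CPM in sum. The mast cell list summed to 275 and 167 CPM under GSI and to 45.7 and 30.5 CPM upon washout, almost all of it Cpa3 and Kit, while 4 of its 7 markers, among them Fcer1a and Ms4a2, were at 0 in every library. The myeloid list summed to 53.4 and 41.6 CPM under GSI, most of it Itgam, and to 13.1 and 12.7 CPM after washout, with 2 of its 6 genes at 0 everywhere. Of its genes that could be tested, Itgam fell (-3.08) and Cd68 rose (0.98), the latter with 7.58 and 7.81 CPM after washout. Erythroid markers summed to 13.2 and 12.3 CPM under GSI against 6.90 and 6.92 CPM after washout. For NK cells the sums were 2.53 and 1.85 CPM against 0.264 and 0.149 CPM, and for stromal cells 3.16 and 3.02 CPM against 1.38 and 1.64 CPM. All 3 were thus lower in both washout libraries. The part of these shifts and of the S phase genes in the results that follow was not tested. In bulk RNA, fewer cells of a kind and less RNA per cell cannot be told apart.

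Upon washout the acetylation genes changed in both directions. At an adjusted p under 0.05 (edgeR's quasi-likelihood test over all 12266 genes tested), 6 of the 37 genes rose and 13 fell. Across all genes tested, 27.0% rose and 25.4% fell by the same rule, so the rises were 16.2% and the falls 35.1% of the acetylation genes. With the additional threshold of a log2 fold change above 1 or below -1, 2 genes rose and 3 fell, against a background of 7.74% and 11.7%. Those that rose past both thresholds were the acetyltransferases Hat1 and Kat2a. Those that fell past both were the deacetylases Hdac5 and Hdac11 and the coactivator Ncoa1. The median log2 fold change was -0.11 over the 37 genes and -0.01 over all genes tested, and the median size of the change regardless of sign was 0.43 against 0.51. In 11 of the 37 genes both washout libraries lay above both GSI libraries and in 18 below, which over all genes tested was the case for 38.2% and 39.1% (77.3% together). Summed over all 37 genes, the counts took 3657 and 3758 CPM under GSI against 3747 and 3764 CPM after washout. The libraries overlapped in this total, while the sums of single classes did not all do so. When only the total count was used for scaling, the median of all genes moved by -0.20 and the split changed to 5 acetylation genes higher and 19 lower, and over all genes from 3315 higher and 3120 lower to 2315 and 4250. After correction for GC content and exon length, with 36 of the 37 genes tested, 10 were higher and 11 lower, and over all genes 3881 were higher and 2850 lower.

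**Figure D1:**
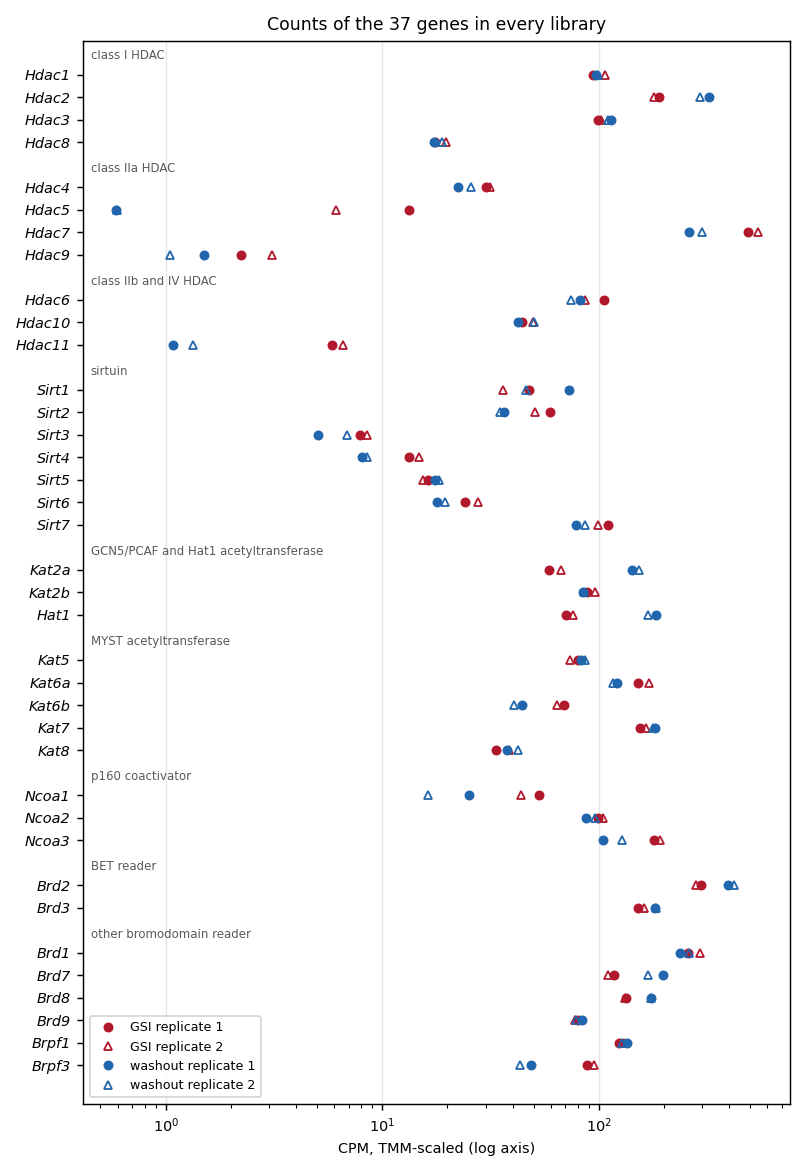
Level of each of the 37 genes in the 4 libraries, in CPM after TMM scaling on a log axis, grouped by role; red marks are GSI and blue marks washout, filled circles replicate 1 and open triangles replicate 2. Hdac7 has the highest level among the class IIa HDACs in every library, and Hdac5 drops from 13.3 and 6.10 CPM to 0.588 and 0.595 CPM.

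Scaled to exon length (RPKM, counts per kilobase of exon scaled to library size), the order of the genes was not the same in both groups. Hdac7 had the highest level in GSI, with 97.3 and 109 RPKM, followed at a distance by Sirt7 (56.5 and 51.1), Hdac3 (49.6 and 51.1) and Hdac1 (45.9 and 52.5). The range of Hdac1 overlapped those of Sirt7 and Hdac3. The lower Sirt7 value (51.10) lay only just above the higher Hdac3 value (51.07), so the order of these genes in GSI is not resolved. Upon washout Hat1 came first, with 96.5 and 88.9 RPKM, then Hdac2 with 76.0 and 69.0 RPKM and Brd2 with 62.8 and 67.2 RPKM. Hdac7 was at 52.0 and 59.7 RPKM upon washout, a range that contained that of Hdac3 (56.5 and 54.7 RPKM). At the bottom of both groups were Hdac5, Hdac9 and Hdac11, whose levels were below 3 RPKM on average. Exon lengths were those of the GENCODE vM1 models of mm9, and Hdac4, which has 2 models there, was given no RPKM value.

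Among the erasers, 1 of the 4 class I genes changed, beside 52.5% of all genes tested. Hdac2, a catalytic subunit shared by the Sin3, NuRD and CoREST complexes (chromosome 10, 36694350 to 36721695, mm9), had 190.5 and 180.1 CPM under GSI against 322 and 292 CPM after washout. Both washout libraries lay above both GSI libraries. Hdac2 rose by a log2 fold change of 0.73 (standard error 0.103, edgeR adjusted p = 0.00202). Its close relative Hdac1 was at 93.6 and 107 CPM under GSI against 96.6 and 99.0 CPM after washout, with overlapping libraries. Its log2 fold change was -0.03 (standard error 0.102, edgeR adjusted p = 0.798). The Hdac1 value carries a limit of its own, since the mm9 genome holds copies on chromosomes 17, 12 and 18. They match 97.7%, 97.1% and 91.9% of the transcript at 98.8%, 93.7% and 95.4% identity, and reads were reported at 1 position each. Hdac3, the enzyme of the NCoR complex, had a log2 fold change of 0.15 (standard error 0.0875) and Hdac8 of -0.04 (standard error 0.137), neither past the threshold. Summed over the 4 class I genes, the level went from 401 and 409 CPM to 550 and 520.1 CPM.

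In class IIa, 3 of the 4 genes fell (75%, against 25.4% of all genes tested) and Hdac9 did not pass the test. Of the 3, Hdac4 was close to the threshold. All 4 had lower values in both washout libraries than in both GSI libraries, which was so for 39.1% of all genes tested. Hdac5 (chromosome 11, 102055746 to 102091480) had 425 and 89 counts under GSI against 20 and 8 after washout, which is 13.3 and 6.10 CPM against 0.588 and 0.595 CPM. The GSI libraries differed from each other, yet both lay about an order of magnitude above the washout libraries. Hdac5 fell by 4.05 on the log2 scale, or 16.6-fold (standard error 0.475, edgeR adjusted p = 0.00109), the largest change among the 37 genes. Without GSI replicate 1 the log2 fold change was -3.36 and without GSI replicate 2 it was -4.47.

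Hdac7 (chromosome 15, 97623095 to 97674933), which represses MEF2-dependent genes in thymocytes, had 487 and 545 CPM under GSI against 260.4 and 299 CPM after washout. It remained the most abundant class IIa gene in every library. Its log2 fold change was -0.88 (standard error 0.123, edgeR adjusted p = 0.00191), and -0.36 after correction for GC content and exon length (edgeR adjusted p = 0.0169). Its exons overlap Slc48a1 on the other strand, and the strand setting of the counting is not given in the sources used here. The same limit holds for Sirt1, Sirt3, Kat5, Kat8 and Brpf1, whose exons also overlap genes on the other strand. Hdac4 went from 30.0 and 31.5 CPM to 22.3 and 25.8 CPM. Its edgeR adjusted p of 0.0486, at a log2 fold change of -0.36, was close to the threshold, and the call was lost in 7 of 11 other settings, DESeq2 among them. Hdac9 was low everywhere, with 71 and 45 counts under GSI against 51 and 14 after washout, and had a log2 fold change of -0.99 (standard error 0.345, edgeR adjusted p = 0.0517). In sum the class IIa genes went from 533 and 585 CPM to 285 and 327 CPM.

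Hdac11, the only class IV enzyme (chromosome 6, 91106659 to 91124686), had 188 and 96 counts under GSI against 37 and 18 after washout, or 5.88 and 6.58 CPM against 1.09 and 1.34 CPM. The groups lay far apart and the replicates close together. Hdac11 fell by 2.38 on the log2 scale (standard error 0.269, edgeR adjusted p = 0.00097). Its exons overlap Gm14573 on the other strand. The class IIb genes did not pass the test: Hdac6, a mainly cytoplasmic tubulin deacetylase, had a log2 fold change of -0.29 (standard error 0.125) and Hdac10 of -0.02 (standard error 0.126).

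**Figure D2:**
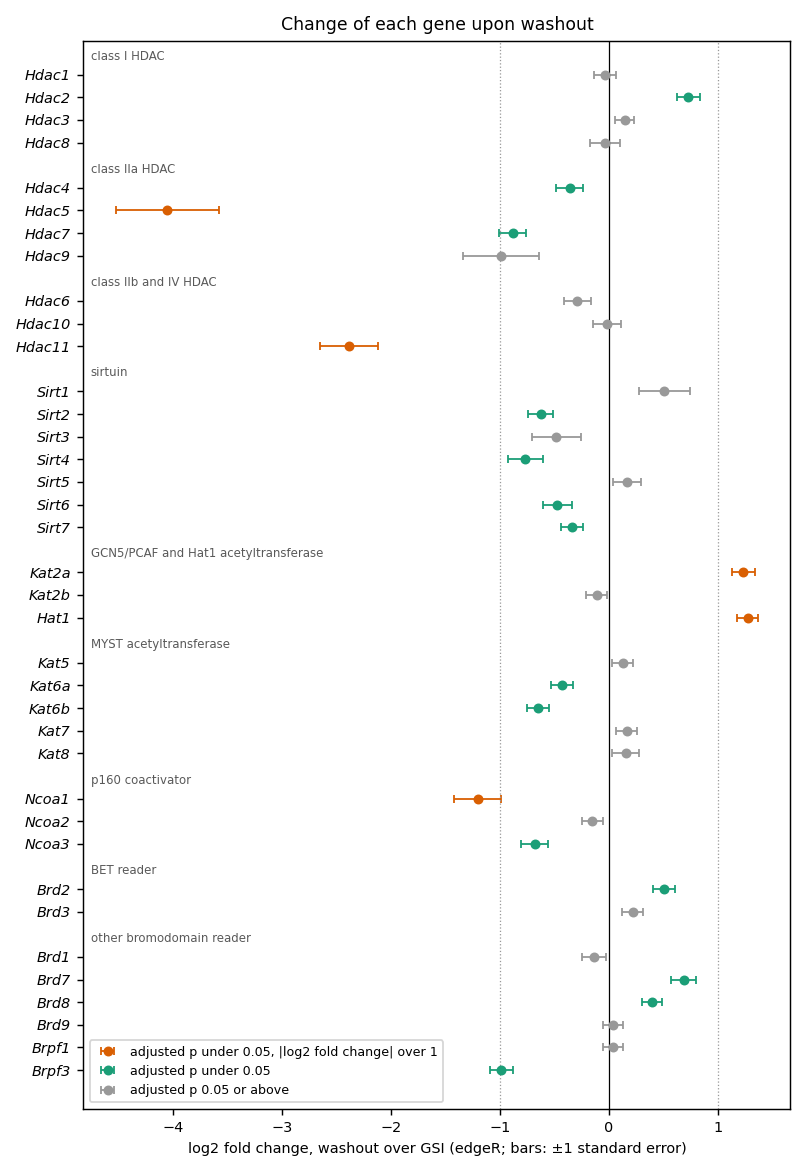
log2 fold change of washout over GSI for each of the 37 genes with ±1 standard error (edgeR, 2 libraries per group), grouped by role; orange marks genes past both thresholds, green those past the adjusted p alone, and dotted lines a log2 fold change of -1 and 1. The class IIa HDACs all lie left of 0, from -0.36 for Hdac4 to -4.05 for Hdac5, and Hat1 and Kat2a stand furthest to the right at 1.27 and 1.24.

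Of the 7 sirtuins, 4 fell (57.1%, against 25.4% of all genes tested) and 3 did not pass the test. Sirt2, a largely cytoplasmic enzyme that also removes acetyl groups from histone H4, had 59.8 and 50.8 CPM under GSI against 36.6 and 35.1 CPM after washout. Sirt4, which is mitochondrial, had 13.3 and 14.8 CPM under GSI against 8.05 and 8.48 CPM after washout. Neither gene's libraries overlapped between the groups. The log2 fold change was -0.63 for Sirt2 (standard error 0.117, edgeR adjusted p = 0.00566). For Sirt4 it was -0.77 (standard error 0.160, edgeR adjusted p = 0.00881), and without GSI replicate 2 the edgeR adjusted p was 0.0568. The nuclear Sirt6 (-0.47, edgeR adjusted p = 0.0246) and the nucleolar Sirt7 (-0.34, edgeR adjusted p = 0.0326) fell by less. After correction for GC content and length their values were -0.19 and -0.085, and neither passed the test there or with DESeq2. Sirt1, a nuclear deacetylase, had 47.7 and 36.1 CPM under GSI against 72.9 and 46.1 CPM after washout. Its libraries overlapped, and its log2 fold change of 0.51 (standard error 0.236, edgeR adjusted p = 0.116) was 0.13 without washout replicate 1 and 0.81 without washout replicate 2. The mitochondrial Sirt3 and Sirt5 had log2 fold changes of -0.48 and 0.17 and did not pass the test.

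Among the writers, the largest rises were those of Hat1 and Kat2a. Hat1, which acetylates newly made histone H4 before it is deposited on DNA (chromosome 2, 71227015 to 71279679), had 70.4 and 75.6 CPM under GSI against 183 and 169 CPM after washout. Kat2a, the GCN5 enzyme of the SAGA and ATAC complexes that acetylates histone H3 (chromosome 11, 100566060 to 100573779), had 58.9 and 67.0 CPM under GSI against 143.0 and 153 CPM after washout. For both genes the washout libraries were all more than 2-fold above the GSI libraries. The log2 fold change of Hat1 was 1.27 (standard error 0.0985, edgeR adjusted p = 0.000391). That of Kat2a was 1.24 (standard error 0.106, edgeR adjusted p = 0.000462). In a test against a log2 fold change of 1 itself (glmTreat), neither passed. Kat2b, the PCAF paralog of Kat2a, had 88.2 and 96.1 CPM under GSI against 84.8 and 85.5 CPM after washout. Its log2 fold change was -0.11 (standard error 0.0929, edgeR adjusted p = 0.345). A stretch of chromosome 5 matches 92.1% of the Kat2b transcript at 94.9% identity, so that its reads could be split between the loci.

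The MYST family had 2 genes that fell (40%, against 25.4% of all genes tested) and 3 that did not pass the test. Kat6b (MORF) had 69.3 and 64.0 CPM under GSI against 44.1 and 40.6 CPM after washout, and its relative Kat6a (MOZ), which is required for hematopoietic stem cells, had 151 and 170 CPM against 121 and 116 CPM. Both genes were lower in both washout libraries. Kat6b changed by -0.65 on the log2 scale (standard error 0.102, edgeR adjusted p = 0.00289) and Kat6a by -0.43 (edgeR adjusted p = 0.0129). Without GSI replicate 2 the edgeR adjusted p of Kat6a was 0.108. Kat5 (TIP60), Kat7 (HBO1) and Kat8 (MOF), the catalytic subunits of the NuA4, HBO1 and MSL/NSL complexes, had log2 fold changes of 0.13, 0.16 and 0.15. None of these 3 passed, and each standard error was between 0.0925 and 0.123.

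The p160 coactivators bring acetyltransferases to nuclear receptors and other factors. Ncoa1 (chromosome 12, 4247363 to 4484060) had 53.0 and 43.9 CPM under GSI against 25.2 and 16.3 CPM after washout. Ncoa3 had 181 and 191 CPM under GSI against 104 and 128 CPM after washout. Both were lower in both washout libraries. The log2 fold change was -1.20 for Ncoa1 (standard error 0.215, edgeR adjusted p = 0.0048) and -0.68 for Ncoa3 (standard error 0.123, edgeR adjusted p = 0.00501). The Ncoa1 value was -0.93 without washout replicate 2 and -1.57 without washout replicate 1, and Ncoa3 overlaps Sulf2 on the other strand. Ncoa2 had a log2 fold change of -0.15 (standard error 0.096) and did not pass the test.

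Of the 8 readers, 3 rose (37.5%), 1 fell (12.5%) and 4 did not pass the test. Over all genes tested 27.0% rose and 25.4% fell. Brd2, a BET protein that binds acetylated histones at active promoters, had 295 and 281 CPM under GSI against 396 and 423 CPM after washout. Brd7, a subunit of the PBAF remodeling complex, had 118 and 110.4 CPM against 198 and 169 CPM. Brd8, a subunit of the NuA4 complex, had 133 and 132 CPM against 175.0 and 174 CPM. In all 3 genes the washout libraries lay above those of GSI. Brd7 had a log2 fold change of 0.69 (standard error 0.113, edgeR adjusted p = 0.00362). Brd2 had one of 0.51 (standard error 0.102, edgeR adjusted p = 0.00763), which was 0.31 with the total count alone and 0.98 after correction for GC content and length. Without GSI replicate 2 the edgeR adjusted p of Brd2 was 0.0631. Brd8 had one of 0.40 (standard error 0.0878, edgeR adjusted p = 0.0109), which was 0.20 with the total count alone and did not pass there (edgeR adjusted p = 0.101).

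Brpf3, a scaffold subunit of MYST complexes, was the reader that fell. It had 88.1 and 94.9 CPM under GSI against 48.9 and 43.3 CPM after washout, without overlap. Its log2 fold change was -0.98 (standard error 0.105, edgeR adjusted p = 0.000817), and -0.57 after correction for GC content and length. Its relatives Brpf1 and Brd1, scaffold subunits of the same complexes, had log2 fold changes of 0.04 and -0.14, with libraries that overlapped between the groups. The BET gene Brd3 had a log2 fold change of 0.22 (standard error 0.0921, edgeR adjusted p = 0.0916) and Brd9, a subunit of a non-canonical BAF complex, one of 0.04 (standard error 0.0916). After correction for GC content and length, Brd3 at 0.47 and Brpf1 at 0.39 passed the test (edgeR adjusted p = 0.00213 and 0.00817).

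To follow related genes against each other, the balance within pairs was computed as the share of the pair's length-scaled counts taken by the first gene. With 2 libraries per group an exact permutation test cannot go below p = 0.333, so these shares are given as a description. Kat2a made up 50.04% and 51.1% of the Kat2a and Kat2b pair in GSI and 71.7% and 72.8% upon washout. On this scale the pair went from near equality to a predominance of Kat2a, with replicates within 1.2 points of each other. In raw counts the Kat2a share was 40.0% and 41.1% in GSI and 62.8% and 64.1% upon washout. The limit on Kat2b given above applies to both scales. Brpf1 went from 62.7% and 62.2% of Brpf1 and Brpf3 to 76.6% and 77.8%. Within Brd7 and Brd9, subunits of different SWI/SNF-type complexes, the share of Brd7 was 49.4% and 48.6% in GSI and 61.1% and 58.9% upon washout. Ncoa1 took 38.4% and 33.1% of Ncoa1 and Ncoa2 in GSI and 25.3% and 16.6% upon washout. Hdac1 took 50.6% and 55.3% of Hdac1 and Hdac2 in GSI and 38.4% and 41.3% upon washout, with the limit on Hdac1 given above. In contrast, the share of Sirt6 within Sirt6 and Sirt7 was 14.2% and 17.2% in GSI and 14.5% and 14.4% upon washout, which overlapped. Without the length scaling every one of these differences kept its sign.

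The windows around the transcription start were examined for the genes past both thresholds, since they changed most. RefSeq promoter windows of 300 bases on GRCm38.p6, a later build than the mm9 of the counts, were at hand for 30 of the 37 genes. They were searched on both strands for the core RBPJ motif TGGGAA, the E-box CACGTG and the E2F-type word TTTGGCGC. The RBPJ word was found in 6 of the 30 windows (20%) and in 22.8% of the windows of all genes tested. The E-box was found in 4 of the 30 (13.3%) and in 10.2%, and the E2F-type word in 0 of the 30 and in 1.10%. These shares lay close to the background and are a description of letters only. Of the genes past both thresholds, Kat2a and Hdac11 held the RBPJ word, Hat1 and Hdac5 the E-box, and Ncoa1 none of the 3. The 4 windows with a match are printed 5′ to 3′ on the gene's strand with the matching words in capitals.
Kat2a, chr11:100712418-100712717 (- strand): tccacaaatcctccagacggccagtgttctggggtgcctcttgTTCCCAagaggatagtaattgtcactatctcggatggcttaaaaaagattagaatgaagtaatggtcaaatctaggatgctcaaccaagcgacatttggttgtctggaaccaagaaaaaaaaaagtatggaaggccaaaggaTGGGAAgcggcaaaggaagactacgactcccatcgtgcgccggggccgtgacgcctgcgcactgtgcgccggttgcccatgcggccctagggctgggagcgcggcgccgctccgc
Hat1, chr2:71389010-71389309 (+ strand): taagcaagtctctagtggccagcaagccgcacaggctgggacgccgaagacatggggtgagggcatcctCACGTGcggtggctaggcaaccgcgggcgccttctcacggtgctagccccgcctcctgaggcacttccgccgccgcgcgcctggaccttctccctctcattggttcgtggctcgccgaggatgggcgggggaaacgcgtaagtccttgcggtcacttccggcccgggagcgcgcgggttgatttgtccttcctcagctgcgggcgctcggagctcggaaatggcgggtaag
Hdac5, chr11:102230123-102230422 (- strand): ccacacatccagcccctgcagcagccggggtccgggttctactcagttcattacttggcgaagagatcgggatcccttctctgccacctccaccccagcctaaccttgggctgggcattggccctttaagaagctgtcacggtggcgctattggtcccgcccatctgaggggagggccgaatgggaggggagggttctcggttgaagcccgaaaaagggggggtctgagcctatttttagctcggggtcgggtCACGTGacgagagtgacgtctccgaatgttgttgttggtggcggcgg
Hdac11, chr6:91156565-91156864 (+ strand): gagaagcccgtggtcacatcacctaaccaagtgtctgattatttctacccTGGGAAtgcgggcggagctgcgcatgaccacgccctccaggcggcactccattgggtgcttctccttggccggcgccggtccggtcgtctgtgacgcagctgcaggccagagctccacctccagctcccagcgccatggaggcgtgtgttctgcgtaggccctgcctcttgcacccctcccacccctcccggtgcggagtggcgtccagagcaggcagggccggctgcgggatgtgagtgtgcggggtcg
In Kat2a the RBPJ word occurs once in each orientation and in Hdac11 once in the forward orientation. The E-box lies upstream of the start in Hat1, inside the 300-base window, and just downstream of the start in Hdac5. The same words thus stand in genes that rose and in genes that fell.

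The enzymes work inside larger complexes, and 128 further genes of these complexes, other acetyltransferases and readers, and suppliers of acetyl-CoA and NAD were counted in the same fit. Of the 127 that could be tested, 48 rose (37.8%) and 24 fell (18.9%), with a median log2 fold change of 0.13, against the background of 27.0% and 25.4%. The subunits of the NuA4/TIP60 complex around Kat5 had 8 of 14 genes that rose and 6 that did not pass the test, with a median of 0.44. In 13 of the 14 the log2 fold change was above 0, which was so for 6071 of the 12266 genes tested. Its largest rise was that of Ruvbl1, a AAA ATPase of NuA4 and other complexes, with 38.1 and 41.1 CPM under GSI against 95.7 and 109 CPM after washout, and the log2 fold change was 1.37 (edgeR adjusted p = 0.000421). The SAGA and ATAC subunits that surround Kat2a and Kat2b had 11 of 22 that rose and 2 that fell, with a median of 0.29. Here Taf9 rose most, with a log2 fold change of 1.06, and Atxn7 fell most, with -0.63. In the complexes of Kat6a, Kat6b, Kat7 and Kat8, 6 of 13 subunits rose and 1 fell, Ing5 with 1.36 and Ing4 with -0.84 at the extremes.

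Subunits of the corepressor complexes were counted in the same way. Around Hdac1 and Hdac2, 8 of 23 subunits rose (34.8%) and 3 fell (13%), beside 27.0% and 25.4% of all genes tested. The called subunits ranged from Rcor3 of the CoREST family (log2 fold change -1.69) to the histone chaperone Rbbp7 (1.01). Around Hdac3, 2 of 5 subunits fell and 3 did not pass the test. Among those that fell was the scaffold Ncor1 (log2 fold change -0.33), a corepressor for several DNA-binding factors. Ncor1 had 588 and 580 CPM under GSI against 468 and 463 CPM after washout. It was lower in both washout libraries (edgeR adjusted p = 0.0375).

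The list of other acetyltransferases also holds enzymes that act on cohesin, on protein N-termini or on RNA. Its largest rise was that of Nat10, an acetyltransferase of RNA in the nucleolus, which rose from 33.1 and 39.8 CPM to 125 and 124 CPM (log2 fold change 1.78, edgeR adjusted p = 0.000328). Ep300, a general coactivator that also serves the Notch complex, had 114 and 150 CPM under GSI against 67.4 and 76.3 CPM after washout. Its log2 fold change was -0.88 (standard error 0.152, edgeR adjusted p = 0.00433). It was the only fall among the 13 acetyltransferases of this list, of which 7 rose (53.8%). Over all genes tested 27.0% rose and 25.4% fell. Crebbp, the paralog of Ep300, had 182 and 231 CPM against 142 and 178 CPM. Its log2 fold change of -0.37 did not pass the test (standard error 0.161, edgeR adjusted p = 0.0987). Among the other readers 13 of 29 fell (44.8%) and 6 rose (20.7%). Sp140, a nuclear body protein of immune cells, had the lowest value (-1.69) and Dpf1, at 10.8 CPM or less in every library, the highest (1.57). Among the suppliers 4 of 11 rose (36.4%) and 2 fell (18.2%), beside the same 27.0% and 25.4%. Nampt, which makes the precursor of NAD, rose most (0.95) and Acss1, which makes acetyl-CoA from acetate in mitochondria, fell most (-1.23).

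**Figure D3:**
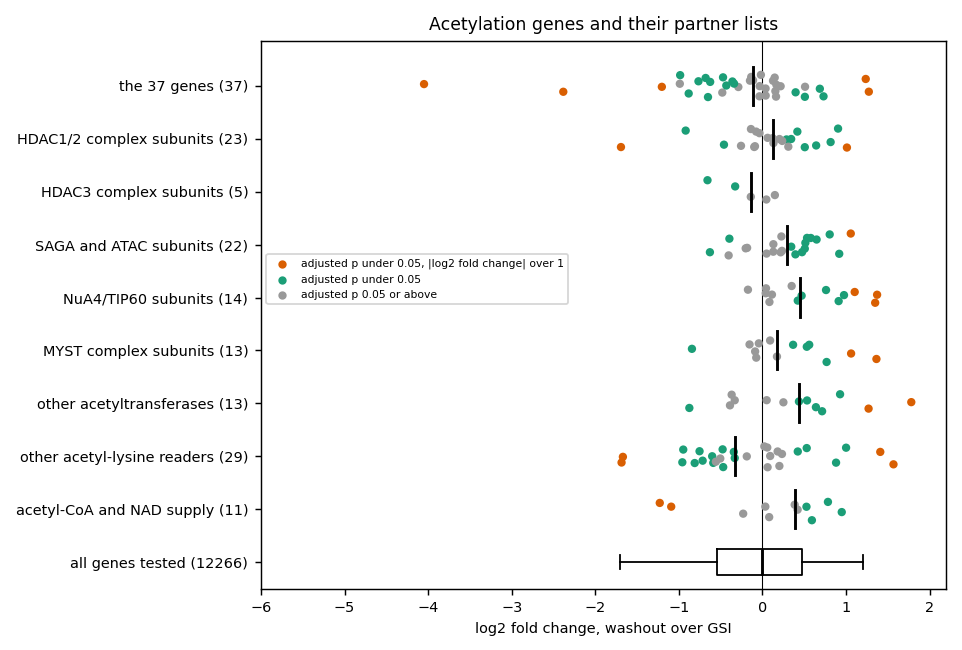
log2 fold change of washout over GSI for the 37 genes, for 8 lists of partner genes (number tested in brackets; black bars are medians) and for all genes tested (box from the lower to the upper quartile, whiskers from the 5th to the 95th percentile). The median is 0.44 for the NuA4/TIP60 subunits and -0.33 for the other acetyl-lysine readers, against -0.01 for all genes tested.

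Which of the 19 called genes depend on the settings is shown by their values side by side. In each of up to 13 alternatives that changed the scaling, the filter, the tool, the block or the libraries (glmTreat, which tests against a log2 fold change of 1, is not among them), 12 of the 19 stayed past the adjusted p of 0.05 in the same direction. These were Hat1, Kat2a, Hdac2 and Brd7 among the genes that rose, and Hdac5, Hdac7, Hdac11, Sirt2, Kat6b, Ncoa1, Ncoa3 and Brpf3 among those that fell. The other 7, Hdac4, Sirt4, Sirt6, Sirt7, Kat6a, Brd2 and Brd8, lost the call in at least 1 alternative, and none of the 19 changed sign.

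**Figure D4:**
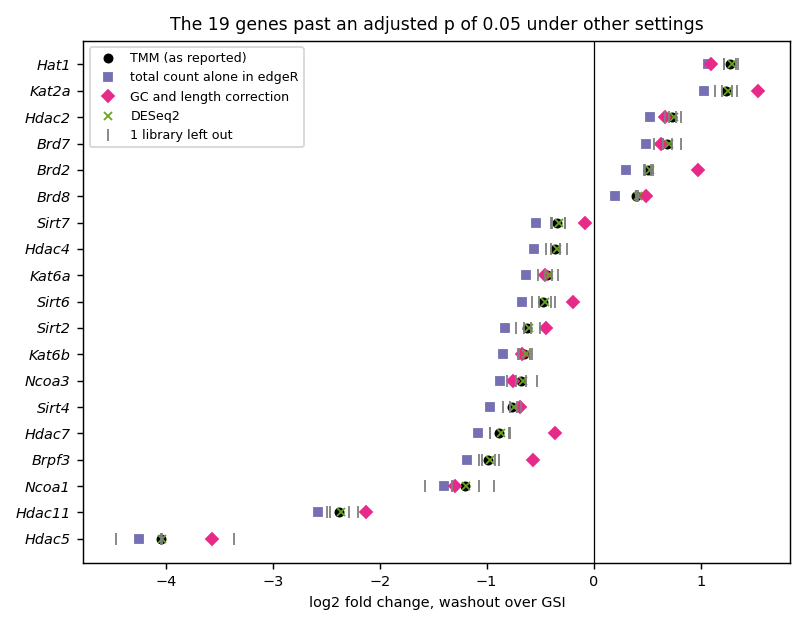
log2 fold change of washout over GSI for the 19 genes past an adjusted p of 0.05, as reported (black), with the total count alone (purple squares), after correction for GC content and exon length (pink diamonds), with DESeq2 (green crosses) and with 1 library left out (grey bars). Hdac7 moves from -0.88 to -0.36 and Brd2 from 0.51 to 0.98 after the correction, whereas Hat1 lies at or above 1.07 in each setting shown.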

How the data were processed

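The sources describe ribosome-depleted, strand-preserving libraries made from total RNA. Trimming (Trim Galore), alignment to mm9 (HISAT2 2.2.1 in the submitters' processing notes, at most 1 position kept for a read) and gene-wise counting (summarizeOverlaps, iGenomes gene models) were done by the authors. What they deposited are whole-number counts for each gene and library, without normalization or pooling. Washout was compared with GSI by edgeR 4.0.16 in R 4.3.3 (filterByExpr, TMM factors, estimateDisp, quasi-likelihood test without covariates, Benjamini-Hochberg adjustment over all 12266 genes tested). Each standard error was derived from the fold change and its F statistic, and CPM values use the TMM factors. A gene was called at an adjusted p under 0.05, and past both thresholds if its log2 fold change also exceeded 1 in size. Depth was between 13716199 and 36364200 counts per library, and 3 counts correspond to 0.0881 to 0.223 CPM. The biological coefficient of variation was 0.121. Replicates of a group differed by more than sampling noise (chi-square per degree of freedom of 18.2 and 28.5).

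Gene positions, exon length and GC content came from GENCODE vM1 on mm9, which matched 36 of the 37 symbols. Transcripts of these 36 genes were aligned to mm9 with minimap2 to find copies. Promoter windows came from RefSeq (GRCm38.p6). The members, gene lists and pairs were chosen with earlier results of these data known. All 37 genes are named. Full values are given for those with an adjusted p under 0.05 and an absolute log2 fold change of at least 0.58, for the largest change in each role, and for some others. In each partner list the largest rise and fall are named, besides Ep300 and Crebbp, except for items not reported here. On simulated counts with 200 of the genes changed, edgeR recovered 184 at an absolute log2 fold change of 1.50 and 15 at one of 0.58, with 22 and 3 false calls. In the real comparison 52.5% of all genes were called, so the adjustment was less strict there. These recoveries therefore do not give the power of the real comparison. Alternatives were DESeq2 1.42.0, other scalings, filters, thinned counts, a replicate block, a correction for GC content and length, glmTreat, and leaving out each library.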

Additional observations from a re-analysis of the deposited data

How the results depend on the processing

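No result of a called gene changed direction under any alternative that was run. The number of acetylation genes lower past both thresholds was 3, and 6 with the total count alone, a setting that shifts the median of all genes by -0.20. Past both thresholds 2 genes were higher, also 2 in DESeq2, and 0 in glmTreat, where 2 were lower. By adjusted p alone 6 genes were higher and 13 lower. After correction for GC content and length 10 were higher and 11 lower, while 57.6% of all genes were called in place of 52.5%. With the replicate block as well 12 were higher and 14 lower, and 74 partner genes were higher in place of 48. In that setting 71.7% of all genes were called, so the counts rose along with those over all genes. The median log2 fold change of the 37 genes, -0.11, was -0.31 with the total count alone, -0.076 without a filter and -0.076 with the correction and the block.

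Leaving out 1 library gave a median log2 fold change of the acetylation genes between -0.14 and -0.029. The median of -0.029 was that without GSI replicate 2, and without washout replicate 1 it was -0.061. In each of these fits a smaller share of all genes was called than with every library kept. A group reduced to 1 library is assumed to vary like the other. Replicate numbers occur in both groups, but nothing says that they mark a shared culture or day. With the number as a replicate block 8 genes were higher and 16 lower, including all 19 called without it, and over all genes 69% were called in place of 52.5%. The differences between replicates correlated at 0.50 between the groups, which with 2 numbers is no more than a hint. Of the 18 genes not called, 12 were called under at least 1 alternative and 11 changed sign in at least 1, so for these genes neither a change nor its absence is shown. The causes of these differences were not tested. At the depth of the smaller libraries Hdac9, with 45 and 14 counts there, allows no firm statement.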
